A study of Homo sapiens with 4 samples.

Results

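Semaphorins, plexins and neuropilins were examined in a pair of breast cancer cell lines that differ in Wnt reporter activity. The members were the protein-coding genes in the deposited count table whose symbols begin with SEMA3 to SEMA7 or with PLXNA, PLXNB, PLXNC or PLXND, together with NRP1 and NRP2. There were 31 such genes among 43714 listed genes: 20 semaphorins, 9 plexins and 2 neuropilins. The choice rested on symbols and not on measured values, although it was made with earlier results of these data known. All 31 passed the filter on low counts.

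The reporter-positive line, labelled MDA-MB-2317TGP-POS, was more than 80% EGFP-positive, and the reporter-negative line, labelled Control MDA-MB-2317TGP-NEG, was more than 95% EGFP-negative. Both came from MDA-MB-231, a human triple-negative breast cancer line with a mesenchymal phenotype, and both carry the 7TGP plasmid, in which 7 TCF sites drive EGFP, were selected with 3 ug/mL puromycin and went through 8 rounds of expansion and sorting. There were 2 libraries per line, all with the same batch label, with total counts of 62539034 and 55894092 in the reporter-positive and 63034563 and 58429705 in the reporter-negative libraries. Each state is a single line, so reporter activity cannot be told apart from whatever else separates them. Nothing in the labels states whether libraries came from separate cultures, so p-values reflect library-to-library spread alone, and that spread may be technical.

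Semaphorins are guidance proteins first known for steering growing axons, and they also act on blood vessels, immune cells and tumour cells. Class 3 members are secreted, while classes 4 to 6 span the membrane and class 7 is held there by a lipid anchor. Plexins are their signalling receptors and act on small GTPases, among them those of the Ras and Rap families. Neuropilins have no enzymatic domain of their own and serve as the ligand-binding partner of plexins for most class 3 semaphorins and of VEGF receptors for VEGF.

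In the reporter-positive line, 5 of the 31 genes rose and 8 fell in edgeR's quasi-likelihood test over all genes (Benjamini-Hochberg adjusted p under 0.05), which is 41.9% of them. Without reporter-negative library 2 the number that rose was 3, and without reporter-negative library 1 the number that fell was 5. Over all 30952 tested genes 22.4% passed, with 11.6% higher and 10.9% lower, and among protein-coding genes 29.5% passed. At 2-fold or more, 4 of the 31 passed (PLXNA2, SEMA3B, SEMA3E and SEMA4D), against 4.05% of all tested genes, coding and noncoding. SEMA4D was at the edge of 2-fold. Its log2 fold change was just short of it under some other settings, such as RLE scaling (-0.994) and DESeq2 (-0.995). The genes that rose were the ligands SEMA3A, SEMA3C, SEMA3E and SEMA7A and the receptor PLXNA1. Those that fell were the ligands SEMA3B, SEMA4D, SEMA4G, SEMA6B and SEMA6C and the receptors PLXNA2, PLXNA4 and PLXNB3. The median log2 fold change of the 31 genes was -0.15, against -0.0046 over all tested genes. Both reporter-positive libraries lay above both reporter-negative ones for 10 of the genes, and below them for 16, whereas 28.2% and 29.5% of all tested genes did so. Of the 13 calls, 7 were kept under every alternative setting tried: PLXNA2, SEMA3B, SEMA3C, SEMA3E, SEMA4D, SEMA6B and SEMA7A. On GRCh38 the genes described at most length span PLXNA2 (ENSG00000076356) at chr1:208022242-208244320 on the reverse strand, SEMA3B (ENSG00000012171) at chr3:50267558-50277546 on the forward strand, SEMA3E (ENSG00000170381) at chr7:83363238-83649113 on the reverse strand, SEMA4D (ENSG00000187764) at chr9:89360787-89498130 on the reverse strand, SEMA7A (ENSG00000138623) at chr15:74409289-74433958 on the reverse strand and PLXNA1 (ENSG00000114554) at chr3:126988594-127037392 on the forward strand.

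**Figure D1:**
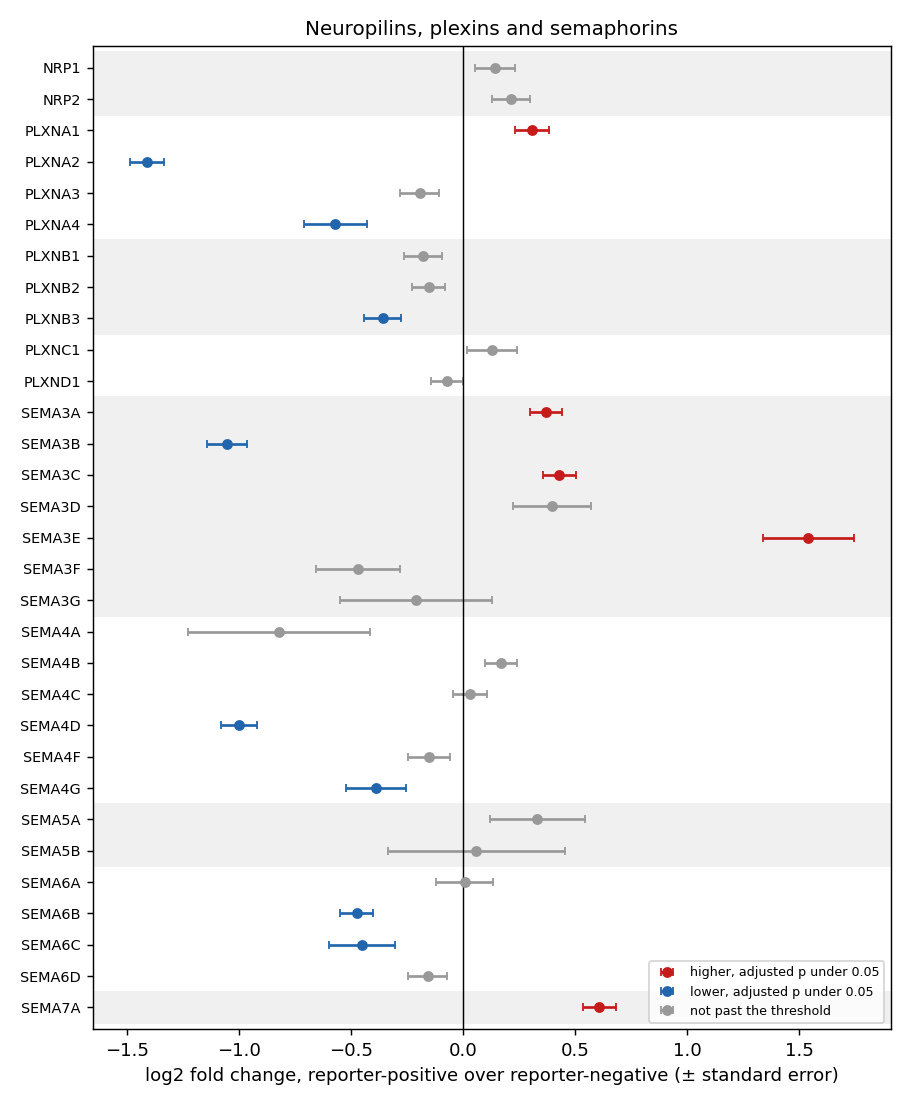
Log2 fold change of each gene, reporter-positive over reporter-negative (points, with the standard error as bars), from 2 libraries per line. SEMA3E, at 1.54, is farthest to the right and PLXNA2, at -1.41, farthest to the left, and both neuropilins sit near 0.

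Promoters are shown for 4 of these genes. SEMA3E and PLXNA2 had the largest changes in each direction among the genes that passed, PLXNA1 moved opposite to its paralog PLXNA2, and SEMA7A rose among neighbours that were mostly lower. Each sequence is the 250 bases before the RefSeq start on GRCh38.p14, given on the gene's strand from chr3:126982865-126983114 (PLXNA1, forward), chr1:208244385-208244634 (PLXNA2, reverse), chr7:83649140-83649389 (SEMA3E, reverse) and chr15:74433959-74434208 (SEMA7A, reverse). Capitals mark the core of the TCF/LEF binding motif.
PLXNA1: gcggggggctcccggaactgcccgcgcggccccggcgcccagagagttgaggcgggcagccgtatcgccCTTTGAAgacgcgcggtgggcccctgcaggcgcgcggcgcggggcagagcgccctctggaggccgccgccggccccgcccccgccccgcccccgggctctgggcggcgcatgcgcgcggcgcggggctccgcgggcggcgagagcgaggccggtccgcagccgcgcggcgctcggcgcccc
PLXNA2: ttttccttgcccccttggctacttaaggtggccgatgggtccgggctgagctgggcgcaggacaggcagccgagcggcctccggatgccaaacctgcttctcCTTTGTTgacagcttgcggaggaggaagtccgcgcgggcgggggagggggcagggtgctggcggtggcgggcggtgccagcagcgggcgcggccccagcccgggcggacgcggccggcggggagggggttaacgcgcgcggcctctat
SEMA3E: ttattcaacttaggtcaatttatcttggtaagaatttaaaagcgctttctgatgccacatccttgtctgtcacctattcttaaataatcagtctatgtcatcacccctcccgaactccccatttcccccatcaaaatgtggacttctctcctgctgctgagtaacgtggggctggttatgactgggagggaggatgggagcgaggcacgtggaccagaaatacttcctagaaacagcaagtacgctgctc
SEMA7A: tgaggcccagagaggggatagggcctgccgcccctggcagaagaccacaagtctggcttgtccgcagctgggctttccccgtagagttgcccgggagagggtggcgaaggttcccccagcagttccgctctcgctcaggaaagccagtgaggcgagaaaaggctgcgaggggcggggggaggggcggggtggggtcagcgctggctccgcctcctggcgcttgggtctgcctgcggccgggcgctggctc
The motif was searched on both strands as CTTTG followed by AA, AT, TA or TT. PLXNA1, which rose, and PLXNA2, which fell, each held 1 match, at positions -181 and -148 from the start. SEMA3E and SEMA7A held none in this window. Of the 27 members with an entry in the RefSeq promoter table, 3 held a match (11.1%), the third being SEMA6D, against 12% of 35116 promoters of the same length. Base composition differed widely: the PLXNA1 window was 84.4% G or C with 46 CpG dinucleotides and the PLXNA2 window 72.4% with 27, while the SEMA3E window was 46.4% with 6 and the SEMA7A window 70% with 17. The median over all promoters was 58% G or C and 11 CpG dinucleotides. A match to these letters is a description and not a binding site, and many genes have further start sites that were not searched. For PLXNA1 the RefSeq start lies upstream of the gene span used for the other positions.

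The deposited counts take in intron reads and do not keep genes apart by strand or overlap. In 3079 of 3079 pairs of a host gene and a gene inside it with no shared exon, the inner gene had no more counts than its host in each library, whichever the strand. For most members this matters little, but for a few the count is largely that of another gene, and these are named where they occur. Levels are CPM, counts scaled to library size with TMM factors. They are compared between genes as CPM per kb of exon unless plain CPM is named. In bulk RNA, a lower level in each cell and fewer cells with the transcript cannot be told apart.

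The neuropilins were at very different levels and did not pass the test. NRP1, the main co-receptor of SEMA3A and of VEGF, stood at 711 and 784 CPM in the reporter-positive libraries, against 678 and 677 CPM in the reporter-negative libraries. Per kb of exon this was the highest level of any member, 64.9 CPM per kb in the reporter-positive and 58.8 in the reporter-negative line. NRP1 did not pass (log2 fold change 0.14, standard error 0.09, edgeR adjusted p = 0.292), but did once reporter-positive library 1 was left out (same test, adjusted p = 0.00274). An antisense gene inside its span, ENSG00000238258, held 11.6% of its count. NRP2, which prefers SEMA3F, was at 18.6 and 18.2 CPM in the reporter-positive libraries, against 16.0 and 15.8 CPM in the reporter-negative libraries. Its libraries did not overlap, but the change was small (log2 fold change 0.21, standard error 0.08, edgeR adjusted p = 0.0724). On the scale of CPM per kb of exon, the ratio of NRP1 to NRP2 was 46.0 and 51.9 in the reporter-positive and 51.3 and 51.6 in the reporter-negative libraries.

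A-type plexins, the partners of neuropilins in class 3 signalling and direct receptors of class 6 semaphorins, moved in both directions. PLXNA1 rose to 324 and 325 CPM in the reporter-positive libraries, against 263 and 261 CPM in the reporter-negative libraries. The gap was far wider than the spread within either line, but the change was small, 1.24-fold (log2 fold change 0.31, standard error 0.07, edgeR adjusted p = 0.00438). Without either reporter-negative library PLXNA1 did not pass (adjusted p = 0.190 without number 1 and 0.210 without number 2, by the same test). PLXNA2, a receptor for SEMA6A and, with neuropilins, for class 3 ligands, had 25.2 and 23.0 CPM in the reporter-positive libraries, against 66.1 and 62.1 CPM in the reporter-negative libraries. It fell by 1.41 on the log2 scale (standard error 0.08, edgeR adjusted p = 2.44e-11), and no listed gene overlaps it. This was the largest fall among the 31 genes, and all 4 libraries were well separated by line.

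PLXNA4, a receptor of SEMA6A and SEMA6B, was low and fell: it had 3.95 and 4.41 CPM in the reporter-positive libraries, against 5.78 and 6.61 CPM in the reporter-negative libraries. This was a log2 fold change of -0.57 (standard error 0.14, edgeR adjusted p = 0.00480, and 0.102 leaving out reporter-negative library 2). PLXNA3, which serves SEMA3F signalling with NRP2, was at 77.4 and 62.9 CPM in the reporter-positive and 82.3 and 78.3 CPM in the reporter-negative libraries. The reporter-positive libraries differed from each other by more than the lines did. It did not pass (edgeR adjusted p = 0.134), although it did after leaving out reporter-positive library 1 (same test, adjusted p = 1.13e-06). It overlaps LAGE3, whose count is 17.2% of its own, by only a few bases. PLXNA3 ends at chrX:154477779 and LAGE3 begins at chrX:154477769.

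The make-up of the A-type plexins therefore differed between the lines while their sum stayed close. Summed over the 4 genes, the level was 38.3 and 37.0 CPM per kb of exon in the reporter-positive and 36.2 and 35.5 in the reporter-negative libraries. PLXNA1 made up 77.3% and 80.3% of that sum in the reporter-positive and 66.4% and 67.3% in the reporter-negative libraries. PLXNA2 made up 4.79% and 4.50% in the reporter-positive and 13.2% and 12.7% in the reporter-negative libraries. On the same scale, PLXNA1 was 16.2 and 17.8 times PLXNA2 in the reporter-positive libraries and 5.01 and 5.30 times in the reporter-negative libraries.

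**Figure D2:**
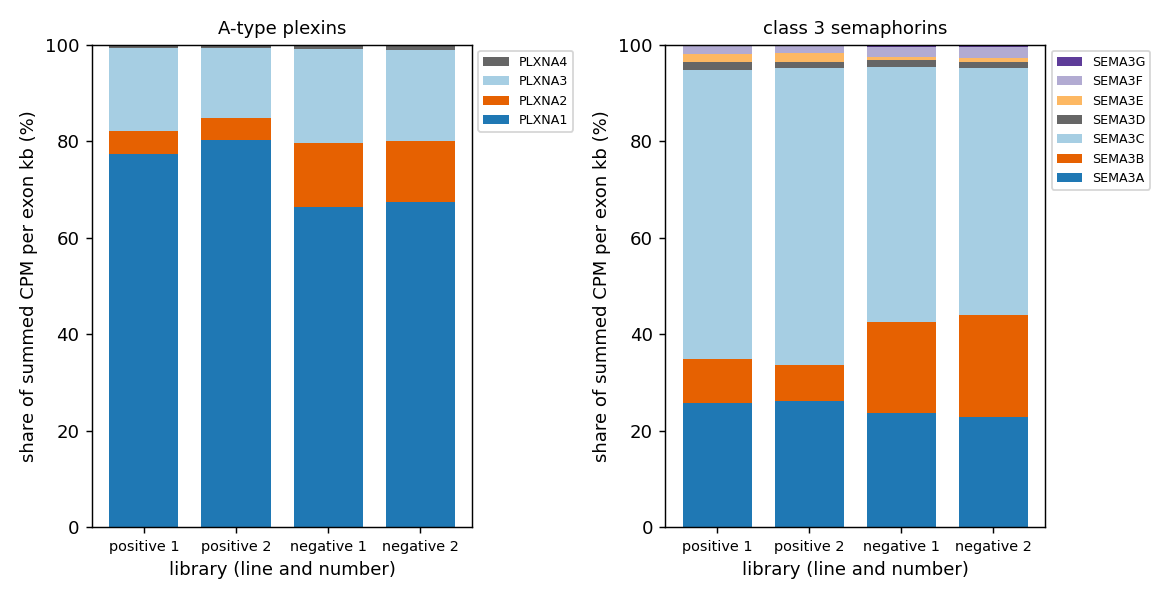
Share of each gene in the summed CPM per kb of exon of the A-type plexins (left) and the class 3 semaphorins (right), 1 bar per library. PLXNA2 makes up 4.50% to 4.79% of the left bars in reporter-positive and 12.7% to 13.2% in reporter-negative libraries, and SEMA3B makes up 7.64% to 9.08% of the right bars in reporter-positive and 18.9% to 21.2% in reporter-negative libraries.

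B-type plexins, receptors of class 4 semaphorins that act on RhoA through PDZ-RhoGEF and LARG, were all lower and 1 of the 3 passed. PLXNB3, a receptor of SEMA5A, had 50.0 and 42.4 CPM in the reporter-positive libraries, against 61.6 and 57.0 CPM in the reporter-negative libraries. It fell by 0.36 on the log2 scale with a standard error of 0.08 (edgeR adjusted p = 0.00305, and 0.0792 leaving out reporter-negative library 1). It overlaps PLXNB3-AS1, whose count is 35.2% of its own, and the kinase gene SRPK3, which fell as well (edgeR adjusted p = 0.0246), so the source of part of its reads is not known. PLXNB2, a receptor of SEMA4C, was the most abundant of the 3, at 197 and 198 CPM in the reporter-positive and 218 and 222 CPM in the reporter-negative libraries. It did not pass (log2 fold change -0.15, edgeR adjusted p = 0.147), but did with scaling to total counts (adjusted p = 0.0178) and without either reporter-positive library (adjusted p = 0.0245 without number 1 and 0.0137 without number 2). PLXNB1, the classical receptor of SEMA4D, was at 25.4 and 22.0 CPM in the reporter-positive and 27.2 and 26.5 CPM in the reporter-negative libraries (edgeR adjusted p = 0.140, and 0.00419 leaving out reporter-positive library 1).

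PLXND1, the receptor that binds SEMA3E without a neuropilin, was at 57.0 and 55.0 CPM in the reporter-positive and 60.3 and 57.4 CPM in the reporter-negative libraries (edgeR adjusted p = 0.554). PLXNC1, a receptor of SEMA7A, was at 9.28 and 8.42 CPM in the reporter-positive and 8.33 and 7.88 CPM in the reporter-negative libraries (edgeR adjusted p = 0.484). Neither receptor passed, while the ligand that each binds rose. PLXNC1 overlaps part of CEP83, whose count is 462% of its own, so its own level is uncertain. Among all 9 plexins, PLXNA1 took 36.1% and 37.6% of the summed CPM per kb of exon and PLXNB2 33.2% and 34.5% in the reporter-positive libraries. In the reporter-negative libraries PLXNA1 took 28.3% and 28.6% and PLXNB2 35.4% and 36.6%. On this scale the leading plexin differed between the lines, PLXNA1 in both reporter-positive and PLXNB2 in both reporter-negative libraries. That order depends on the division by exon length, although intron reads were counted. In plain CPM, PLXNA1 was above PLXNB2 in every library, with means of 325 against 198 in the reporter-positive line. In the reporter-negative line the means were 262 against 220 CPM. PLXNB2 itself did not pass the test.

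**Figure D3:**
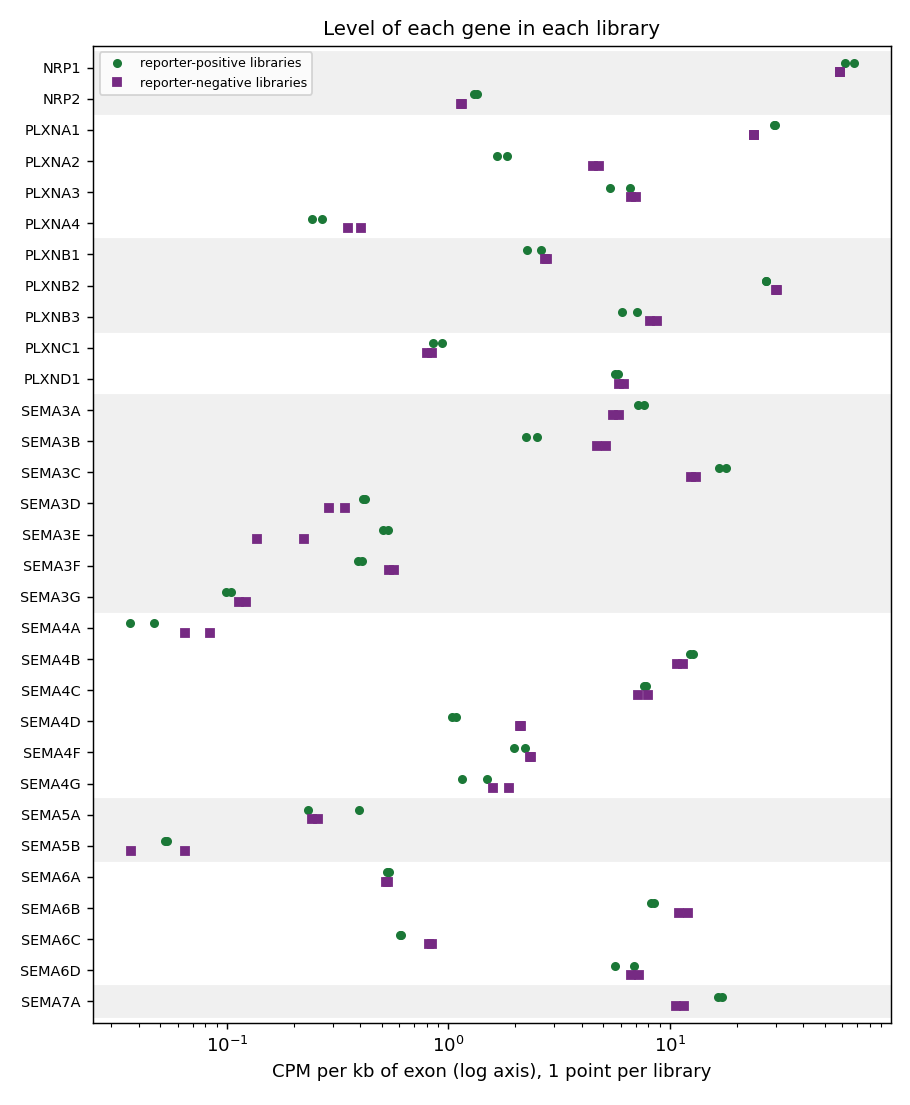
Level of each gene in each library as CPM per kb of exon on a log axis, with 1 point per library (circles reporter-positive, squares reporter-negative). NRP1 is the highest, at means of 64.9 (reporter-positive) and 58.8 (reporter-negative), and SEMA4A and SEMA5B the lowest, and for PLXNA2, SEMA3B, SEMA3E and SEMA4D the lines stand clearly apart.

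Secreted class 3 semaphorins gave 3 rises, 1 fall and 3 genes that did not pass. SEMA3A, which collapses axonal growth cones through NRP1 and A-type plexins, had 67.2 and 71.5 CPM in the reporter-positive libraries, against 55.1 and 52.2 CPM in the reporter-negative libraries. It rose 1.29-fold (log2 fold change 0.37, standard error 0.07, edgeR adjusted p = 6.63e-04, and 0.0576 leaving out reporter-negative library 2). SEMA3C, which binds both neuropilins and was the most abundant semaphorin of its class, had 104 and 112 CPM in the reporter-positive libraries, against 82.4 and 78.4 CPM in the reporter-negative libraries. It rose 1.35-fold (log2 fold change 0.43, standard error 0.07, edgeR adjusted p = 1.63e-04). Neither gene overlaps another listed gene, and in both the lines were separated by more than the spread within them.

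SEMA3E, a ligand of PLXND1 known from vessel patterning, was low and had the largest rise. It had 269 and 236 counts in the reporter-positive libraries, against 73 and 115 counts in the reporter-negative libraries, which is 4.28 and 4.50 CPM against 1.15 and 1.87 CPM. The reporter-negative libraries differed from each other more than the reporter-positive ones did. SEMA3E rose 2.91-fold (log2 fold change 1.54, standard error 0.20, edgeR adjusted p = 1.26e-05), with log2 fold changes of 1.23 to 1.93 when a single library was left out. Even so it made up only 1.83% of the class 3 sum per kb of exon in each reporter-positive library, against 0.548% and 0.910% in the reporter-negative libraries.

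SEMA3B, a class 3 ligand described as a candidate tumour suppressor on the short arm of chromosome 3, had 14.5 and 12.9 CPM in the reporter-positive libraries, against 27.2 and 29.8 CPM in the reporter-negative libraries. It fell by 1.05 on the log2 scale with a standard error of 0.09 (edgeR adjusted p = 1.57e-08). Its share of the class 3 sum was 9.08% and 7.64% in the reporter-positive and 18.9% and 21.2% in the reporter-negative libraries, and SEMA3C was 6.61 and 8.02 times its level per kb of exon in the reporter-positive and 2.79 and 2.42 times in the reporter-negative libraries. SEMA3F, a ligand of NRP2 that is also described as a candidate suppressor, was at 1.96 and 1.89 CPM in the reporter-positive and 2.60 and 2.74 CPM in the reporter-negative libraries (edgeR adjusted p = 0.0796). It overlaps SEMA3F-AS1, whose count is 973% of its own, but shares only a small part of that gene's span. SEMA3F begins at chr3:50155045, and SEMA3F-AS1 runs from chr3:50116022 to chr3:50156085. SEMA3D, at 3.38 and 3.32 CPM in the reporter-positive and 2.76 and 2.33 CPM in the reporter-negative libraries (edgeR adjusted p = 0.114), and SEMA3G, at 0.614 CPM or less in all 4 libraries (edgeR adjusted p = 0.740), did not pass.

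Among class 4 semaphorins, membrane proteins that signal mainly through B-type plexins, 2 of 6 fell and none rose. SEMA4D, the ligand of PLXNB1 and of CD72 on lymphocytes, had 15.3 and 14.7 CPM in the reporter-positive libraries, against 30.1 and 29.8 CPM in the reporter-negative libraries. It fell by 1.00 on the log2 scale with a standard error of 0.08 (edgeR adjusted p = 8.10e-09), and the spread within each line was small beside the gap. SEMA4G had 7.87 and 6.03 CPM in the reporter-positive libraries, against 9.89 and 8.37 CPM in the reporter-negative libraries. Its fall of 0.39 on the log2 scale just passed (edgeR adjusted p = 0.0438). That call was lost after leaving out reporter-negative library 1 (adjusted p = 0.395), leaving out reporter-positive library 2 (0.207), with scaling to total counts (0.0542), with DESeq2 (0.0867) and with limma-voom (0.0555). SEMA4G lies wholly within MRPL43 on the opposite strand, whose count is 406% of its own and which did not pass (edgeR adjusted p = 0.771). An antisense gene inside SEMA4G, ENSG00000236662, held 60.6% of its count. With that count taken off, the log2 fold change was -0.36, close to the -0.39 of the full count, but SEMA4G did not pass (edgeR adjusted p = 0.214).

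SEMA4B was the most abundant class 4 gene, at 86.4 and 89.1 CPM in the reporter-positive and 80.2 and 75.7 CPM in the reporter-negative libraries (edgeR adjusted p = 0.0986, and 0.00840 leaving out reporter-positive library 1). SEMA4C, a ligand of PLXNB2, was at 48.2 and 47.2 CPM in the reporter-positive and 44.1 and 49.3 CPM in the reporter-negative libraries, which overlap (edgeR adjusted p = 0.835). SEMA4F was at 13.9 and 12.3 CPM in the reporter-positive and 14.5 and 14.6 CPM in the reporter-negative libraries (edgeR adjusted p = 0.283). SEMA4A, with 20 and 13 counts in the reporter-positive and 28 and 35 counts in the reporter-negative libraries, was too low for a firm statement (edgeR adjusted p = 0.171). None of these 4 genes passed.

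Class 5, 6 and 7 semaphorins gave 2 falls and 1 rise among 7 genes. SEMA6B, a ligand of PLXNA4, had 36.1 and 37.3 CPM in the reporter-positive libraries, against 48.6 and 53.3 CPM in the reporter-negative libraries. It fell by 0.47 on the log2 scale with a standard error of 0.07 (edgeR adjusted p = 6.88e-05). SEMA6C had 3.55 and 3.51 CPM in the reporter-positive libraries, against 4.77 and 4.88 CPM in the reporter-negative libraries. Its fall of 0.45 on the log2 scale passed (edgeR adjusted p = 0.0292), but not without a reporter-negative library (adjusted p = 0.153 without number 1 and 0.176 without number 2) or with DESeq2 (0.0860).

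SEMA7A, which signals through PLXNC1 and through integrin alpha 1 beta 1, had 65.5 and 63.0 CPM in the reporter-positive libraries, against 40.5 and 43.8 CPM in the reporter-negative libraries. It rose 1.52-fold (log2 fold change 0.61, standard error 0.07, edgeR adjusted p = 2.63e-06). Of the summed CPM per kb of exon of all 20 semaphorins, SEMA7A took 20.2% and 19.0% in the reporter-positive and 13.3% and 14.1% in the reporter-negative libraries. Part of that sum is not semaphorin RNA: SEMA6D made up 6.61% to 8.86% of it, and enclosed genes held 95.0% of the SEMA6D count. SEMA3C took 19.5% and 20.6% in the reporter-positive and 16.5% and 15.3% in the reporter-negative libraries. On this scale the order of SEMA7A and SEMA3C changed between the reporter-positive libraries, while SEMA3C led both reporter-negative libraries. In plain CPM, SEMA3C was above SEMA7A in every library.

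The other class 5 and 6 genes did not pass. SEMA6D, nominally at 48.3 and 58.8 CPM in the reporter-positive and 57.2 and 62.1 CPM in the reporter-negative libraries, holds the ribosomal protein pseudogene RPL7AP62 on the opposite strand, whose count is 94.8% of its own. With the enclosed genes taken off, SEMA6D kept 192 and 134 counts in the reporter-positive and 132 and 226 counts in the reporter-negative libraries, which overlap (edgeR adjusted p = 0.955). On its full count it passed after leaving out reporter-positive library 2 (edgeR adjusted p = 5.63e-05). SEMA6A, a ligand of PLXNA2 and PLXNA4, was at 5.76 and 5.92 CPM in the reporter-positive and 5.87 and 5.75 CPM in the reporter-negative libraries (edgeR adjusted p = 0.981), and enclosed genes held 56.9% of its count. SEMA5A, a ligand of PLXNB3, was at 4.76 and 2.81 CPM in the reporter-positive and 2.94 and 3.11 CPM in the reporter-negative libraries (edgeR adjusted p = 0.315, and 0.00176 leaving out reporter-positive library 2). SEMA5B had 34 counts or fewer in all 4 libraries (edgeR adjusted p = 0.946).

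Position set some of these genes beside each other. SEMA3A, SEMA3C, SEMA3D and SEMA3E lie within 4.44 Mb of chromosome 7, all on the reverse strand, and all 4 were higher in the reporter-positive line, 3 of them past the threshold. The 9 other tested coding genes within 2 Mb of them had a median log2 fold change of 0.27, with 4 higher and 0 lower. SEMA3B, SEMA3F, SEMA3G and PLXNB1 lie within 4.04 Mb of chromosome 3 and were all lower, 1 past the threshold. Their 151 tested coding neighbours had a median of -0.10, with 6 higher and 25 lower. Over all tested protein-coding genes, 14.7% were higher and 14.8% lower, which is the background for each count of neighbours given here. The 25 lower of 151 are close to the share of lower genes, while the 6 higher are well below the share of higher genes. SEMA4D fell among 13 neighbours with a median of -0.46, of which 7 fell and 2 rose. SEMA7A went the other way from its surroundings: of its 49 neighbours on chromosome 15, 27 fell and 1 rose, with a median of -0.38. PLXNA2 fell among 34 neighbours with a median of 0.07, of which 10 rose and 4 fell. SEMA6C fell among 80 with a median of 0.0047, of which 19 rose and 5 fell. PLXNB3 fell among 69 with a median of 0.075, of which 18 rose and 2 fell. SEMA6B fell among 92 with a median of -0.10, of which 22 fell and 5 rose. PLXNA1 rose among 31 with a median of -0.0086, of which 7 rose and 2 fell. SEMA5A, which did not pass, had 12 neighbours with a median of 0.59, of which 8 rose. The part that a shared change of a region has in these values was not tested.

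**Figure D4:**
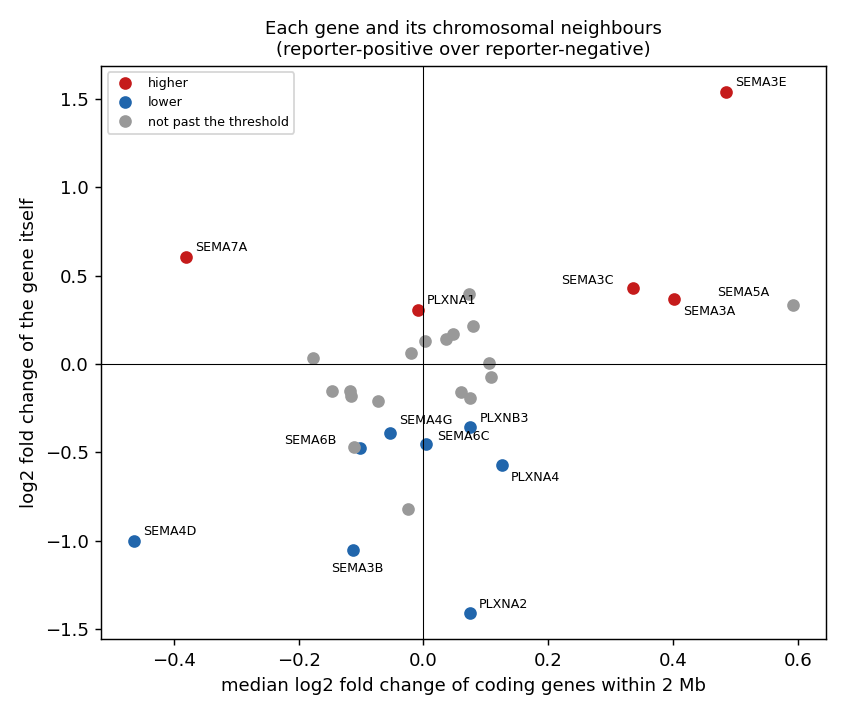
Log2 fold change of each gene (vertical axis) against the median log2 fold change of the tested coding genes within 2 Mb of it (horizontal axis), reporter-positive over reporter-negative, 1 point per gene. SEMA3A, SEMA3C and SEMA3E have higher neighbours, SEMA4D lower ones, and SEMA7A rose while its neighbours had a median of -0.38.

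The signalling partners of the family moved both ways as well. Of 67 listed genes 66 were tested, and 14 rose, 18 fell and 34 did not pass in the same edgeR test. The share that passed was 48.5%, against 29.5% of protein-coding genes and 22.4% of all genes. The list was drawn up with earlier results of these data known, so its share is not independent of them. Scaling to total counts left 6 that rose, and leaving out reporter-negative library 1 left 7 that rose and 6 that fell, while leaving out reporter-negative library 2 left 9 and 9. Their median log2 fold change was -0.0053. The 6 partners in each direction with the smallest adjusted p are named below, each at 8.35e-04 or less in edgeR. Among other receptors and co-receptors, 4 of 14 rose and 4 fell. ITGA1, the integrin alpha 1 chain that takes part in binding SEMA7A, had 414 and 440 CPM in the reporter-positive libraries, against 184 and 179 CPM in the reporter-negative libraries (log2 fold change 1.24, edgeR adjusted p = 2.09e-10), so the ligand and this receptor chain both rose. ITGA1 overlaps ITGA2-AS1, whose count is 34.5% of its own. Its partner chain gene ITGB1 did not pass, at 1022 ± 84.8 CPM in the reporter-positive and 975 ± 7.40 CPM in the reporter-negative line (SD, n = 2; edgeR adjusted p = 0.69). L1CAM, an adhesion molecule that joins NRP1 in the SEMA3A receptor, rose 1.37-fold (edgeR adjusted p = 1.09e-04). MST1R, which encodes the RON kinase found with B-type plexins, fell by 0.53 on the log2 scale, with an overlapping gene, ENSG00000230698, at 33.3% of its count. PTK7 fell by 0.37 on the log2 scale.

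Of 5 neuropilin ligands outside the semaphorins, 2 rose and 1 fell. PGF, placental growth factor, had 16.8 and 16.9 CPM in the reporter-positive libraries, against 3.40 and 3.30 CPM in the reporter-negative libraries. It rose 5.03-fold (log2 fold change 2.33, standard error 0.11, edgeR adjusted p = 2.07e-12), the largest change in the list. Of 6 processing proteases, which cleave and activate or shed semaphorins, 2 rose and 2 fell: PCSK7 rose 1.34-fold, with an overlapping gene at 31.2% of its count, and PCSK5 fell by 0.82 on the log2 scale, to 7.37 and 6.07 CPM in the reporter-positive libraries, against 12.6 and 11.3 CPM in the reporter-negative libraries.

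Cytoplasmic effectors fell in 6 of 19 cases and rose in 2. The collapsin response mediator genes, whose products relay SEMA3A signals to microtubules, included DPYSL2, which fell by 0.41, and DPYSL3, which fell by 0.79 on the log2 scale, to 6.70 and 7.33 CPM in the reporter-positive libraries, against 11.2 and 13.2 CPM in the reporter-negative libraries. FYN, the Src-family kinase that acts with A-type plexins, rose 1.33-fold. Of 22 tested GTPases, regulators and kinases, 4 rose and 5 fell. RND3, which encodes a small GTPase, rose 1.61-fold, with 54.3 and 57.6 CPM in the reporter-positive libraries, against 35.6 and 34.1 CPM in the reporter-negative libraries. RHOD, which encodes a small GTPase that binds plexins, fell by 0.79 on the log2 scale (edgeR adjusted p = 4.98e-05).

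**Figure D5:**
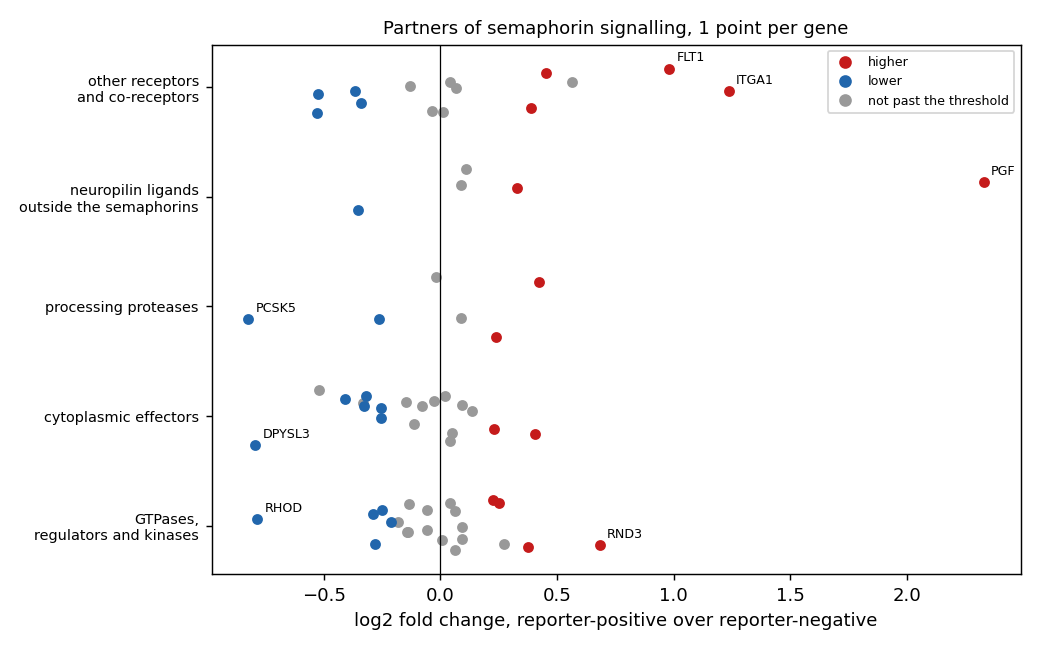
Log2 fold change, reporter-positive over reporter-negative, of 66 tested signalling partners in 5 classes, 1 point per gene (vertical scatter within a class is only for legibility). PGF, at 2.33, and ITGA1, at 1.24, lie farthest to the right, and PCSK5, DPYSL3 and RHOD farthest to the left.

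Marker genes were set beside the labels. The Wnt targets AXIN2, LEF1 and LGR6 all rose in the reporter-positive line, with log2 fold changes of 0.65 to 2.21. Of all tested genes, 11.6% were higher. These 3 were chosen with earlier results of these data known, so their rise is not an independent check of the labels. VIM was high in both lines although it fell. Its level was 1300 ± 60.7 CPM in the reporter-positive against 2670 ± 63.2 CPM in the reporter-negative line (SD, n = 2). Of the other mesenchymal markers, CD44 rose (log2 fold change 0.23, edgeR adjusted p = 0.0373). FN1 and ZEB1 did not pass, at means of 674 and 125 CPM in the reporter-positive and 680 and 133 CPM in the reporter-negative line. CDH2 was low, at 1.80 and 2.02 CPM in the reporter-positive and 0.961 and 1.51 CPM in the reporter-negative libraries (edgeR adjusted p = 0.0706). CDH1 and PGR stayed below 1 CPM in all 4 libraries, and EPCAM (4.49 to 4.74 CPM) and ESR1 (4.88 to 6.18 CPM, overlapping SYNE1, whose count is 993% of its own) were low and did not pass. KRT8, KRT18, KRT19 and ERBB2 were above 50 CPM in all 4 libraries and fell. Their log2 fold changes were -0.26 to -0.54, with edgeR adjusted p of 0.0104 or less. KRT18 overlaps part of KRT8, whose count is 396% of its own. Among markers of other cell types that use the family, 0 of 4 endothelial genes passed in edgeR at an adjusted p under 0.05 (1, TEK, with an unadjusted p under 0.05, 0 with DESeq2 and 0 with limma-voom), and CDH5, VWF and TEK stayed at 1.55 CPM or less, while PECAM1 was at 75.9 and 58.9 CPM in the reporter-positive and 88.9 and 73.0 CPM in the reporter-negative libraries. Of 3 leukocyte markers, CD3E was too low to test. PTPRC was at 2.90 and 2.77 CPM in the reporter-positive and 1.92 and 2.07 CPM in the reporter-negative libraries. CD14 was at 3.85 and 3.82 CPM in the reporter-positive and 2.65 and 3.32 CPM in the reporter-negative libraries. Neither PTPRC nor CD14 passed (edgeR adjusted p = 0.0531 and 0.134). TUBB3, the only neuronal marker of 4 that passed, fell by 0.64 on the log2 scale. It overlaps ENSG00000198211, whose count is 104.6% of its own, so the source of its reads is uncertain. Spearman coefficients were 0.992 within the reporter-positive line, 0.993 within the reporter-negative line and 0.980 to 0.983 between lines, across genes, which are not independent replicates.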

How the data were processed

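RNA of 2 reporter-positive and 2 reporter-negative libraries was sequenced, with 1 ug of RNA per library in an Ultra II kit, per the labels' protocols. The authors deposited raw read counts per Ensembl gene ID. HISAT2, Bowtie2, DESeq2 and the build hg19 are named without role or version, per the submitters' processing notes. Counting tool, annotation and strand setting: not given in the sources used here. Each of the 43714 IDs is in GENCODE release 29 on GRCh38, which gave positions and exon lengths, and 43289 have a current symbol.

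The test was that of edgeR 4.0.16, run in R 4.3.3 (TMM, filterByExpr by line with a minimum count of 10 and minimum total count of 15, robust quasi-likelihood fit and F test, line as the only term), with Benjamini-Hochberg adjustment over 30952 genes at 0.05. Every adjusted p is from this test unless another is named. Standard errors are the log2 fold change over the square root of F. It was first run on simulated counts. No library was a copy of another: counts within a line gave a chi-square of 17.1 (reporter-positive) and 32.8 (reporter-negative) per degree of freedom. Each CPM is relative to a TMM-scaled library size. Exon length is the union of annotated exons, although intron reads were counted too. At these total counts there is small counting error for all but the lowest genes.

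Each result was recomputed with DESeq2 1.42.0, with limma-voom (limma 3.58.1), with RLE or total count scaling, unfiltered or at 1 CPM in 2 libraries, blocked by library number, minus each library in turn, and over non-overlapping genes. Subtraction of enclosed genes was added after the data were seen. Members, gene lists and markers were chosen with earlier results of these data known. Members that passed, or had a mean of at least 5 CPM, were named with their values, as were lower ones where fewer than 10 remained, along with up to 6 signalling partners per direction by adjusted p. Motif forms were set after the promoters were read. ITGB1 was named after its value was seen. No columns of other samples were present.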

Additional observations from a re-analysis of the deposited data

How the results depend on the processing

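Of 383 member values under 13 alternatives, 358 kept their call, 14 lost it, 11 gained one and 0 reversed. A change of sign counted as a reversal only where the gene passed in the main fit or the alternative. Some log2 fold changes that passed in neither did change sign. SEMA5A went from 0.33 to -0.11 without reporter-positive library 1, and SEMA4C from 0.03 to -0.05 with scaling to total counts. The calls lost belonged to PLXNA1, PLXNA4, PLXNB3, SEMA3A, SEMA4G and SEMA6C, and each of the 6 was lost when a single library was left out. Leaving out a library in turn gave 3 to 7 members higher and 5 to 11 lower, 7 to 17 partner genes higher and 6 to 19 lower, and 2333 to 4704 of all genes higher and 2025 to 4457 lower. Such fits leave 1 library in a line, which is assumed to vary like the others. Scaling to total counts gave 2270 higher genes in all, 36.0% of the calls against 51.5% with TMM, and 6 higher partner genes, and it shifted the median log2 fold change by -0.083. Among genes without an overlapping gene, where 14 members, 25 partners and 9888 genes were tested, 3 members were lower, 5 partners were higher and 5 lower, and 1111 genes were higher and 1093 lower. That fit has fewer genes by construction. Other counts of calls stayed within 1.5 times. The library numbers are not stated to pair the libraries, and the difference between numbers 1 and 2 correlated at -0.026 between lines. With the library number as a replicate block, 6 members were higher and 9 lower, and 4175 and 4051 genes in all, with NRP2 (adjusted p = 0.0407) and PLXNA3 (0.0356) added. DESeq2 gave no adjusted p for 2 members. Depth limits SEMA3G, SEMA4A and SEMA5B.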

Other observations

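Of 6 antisense genes named for members of the family, 5 were tested, and 0 passed in edgeR at an adjusted p under 0.05 (0 with an unadjusted p under 0.05, 0 with DESeq2 and 0 with limma-voom), where 22.4% of all tested genes passed. Of their partner genes, PLXNB3 and SEMA3B passed, and SEMA3F and SEMA6A did not. SEMA3F-AS1 was at 22.5 and 21.5 CPM in the reporter-positive and 23.1 and 22.6 CPM in the reporter-negative libraries. PLXNB3-AS1 was at 17.8 and 18.7 CPM in the reporter-positive and 19.1 and 19.3 CPM in the reporter-negative libraries. SEMA3B-AS1, next to SEMA3B, had 4 and 5 counts in the reporter-positive and 12 and 10 counts in the reporter-negative libraries, too few for a firm statement (log2 fold change -1.15, edgeR adjusted p = 0.240). SEMA6A-AS1 was at 2.80 and 2.23 CPM in the reporter-positive and 2.68 and 2.93 CPM in the reporter-negative libraries. Strand was not kept in the counts, so reads of a gene and its antisense partner cannot be told apart where they overlap.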
